A study of Drosophila melanogaster with 4 samples.

Results

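The comparison described here set a library of ovarian somatic cells (OSCs) treated with siPIWI against a library of OSCs treated with siGFP. These are 2 of the 4 libraries of the series, and they were taken by their treatment label. OSCs are a cultured *Drosophila melanogaster* line, which the labels give as somatic follicle cells, and each library is 1 culture sample. Both groups share the cell line, and the siRNA against GFP, a protein foreign to the fly, served as the control. The other 2 libraries are from ovaries in which tj-GAL4, a driver active in the ovarian soma, expressed a hairpin against *vreteno* or, as the control, against *arrestin2*. RNA was poly(A)-selected and read directly on a nanopore device. Of 150 reference sequences in the files, 124 are transposons and were used; the 26 left out are satellites, other repeats and chromosomal regions, Stellate and Su-Ste.

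The ovary silences transposons with piRNAs, short RNAs bound by Argonaute proteins of the Piwi clade, which they direct to RNAs of matching sequence. In follicle cells Piwi is the one such protein at work: loaded with piRNAs, it enters the nucleus and represses transcription of the matched elements through heterochromatin. Many of the piRNAs come from flamenco, a locus filled with fragments of gypsy-related retrotransposons. Several elements of that family carry an envelope (env) gene and are known as endogenous retroviruses of the follicle cells. The question posed by the comparison is which transposon RNAs are present in follicle cells once *piwi* is knocked down.

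The siGFP library held 57045 transposon reads and the siPIWI library 164243. A transposon without a read could hold up to 0.00526% of transposon reads in siGFP and up to 0.00183% in siPIWI. Reads are given first as deposited, then as a fold after dividing siPIWI reads by 1.99, the median ratio over the 54 elements that reached 10 reads in each of the OSC libraries. The 95% interval of that median, 1.55 to 2.63, puts a common factor of 0.754 to 1.28 on every fold, beyond its own interval. That interval reflects the spread of ratios among the 54 elements, and below it is called the uncertainty of the scaling. Scaling to copia reads (2.08) or to the sequences left out (2.14) falls inside it. Scaling to total transposon reads (2.88) or to those without copia (5.06) falls outside. All other intervals are 95% intervals, exact for the reads, and cover counting error only. With 1 library a group there is no replicate check and no p-value. In such bulk RNA, fewer cells with an element and less RNA of it per cell cannot be told apart. Levels of *piwi* mRNA and of follicle cell markers were not analysed here, so neither the knockdown nor the cell type was checked.

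RNA of 15 LTR retrotransposons of the Ty3/gypsy class was called at least 4-fold more abundant in the siPIWI library. The counting intervals of HMS-Beagle2, Idefix and GATE, which are among the 15, reached below 4-fold, with lower limits of 3.10, 2.96 and 1.62. The most abundant transposon, copia, stayed close to the scaling ratio. An element was called higher or lower where the log2 ratio of scaled reads, with 1 read added to each, was at least 2 in size (4-fold). Of the 73 transposons that reached 10 reads in either OSC library, 18 were called higher (24.7%) and 0 lower (0%). All 6 past the minimum in the mdg1 group were called higher, and 5 of 12 in the gypsy group with env. With scaling to transposon reads without copia, blood, Stalker and Stalker2 lay under the 4-fold line, at log2 ratios of 1.27, 1.69 and 1.69. Elsewhere the numbers were 4 of 19 other Ty3/gypsy elements, 1 of 4 copia-like, 1 of 13 non-LTR and 1 of 12 DNA transposons, and 0 for the 4 Bel-Pao and 3 telomeric elements. Of the 73, 19 passed the minimum through the siPIWI library alone and had to be higher there as deposited. Among them are 8 of the 18 calls: Tabor, gtwin, gypsy5, Idefix, Pifo, GATE, Dm88 and Transib1. With at least 10 reads asked of both libraries, 10 of 54 were called higher (18.5%).

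**Figure D1:**
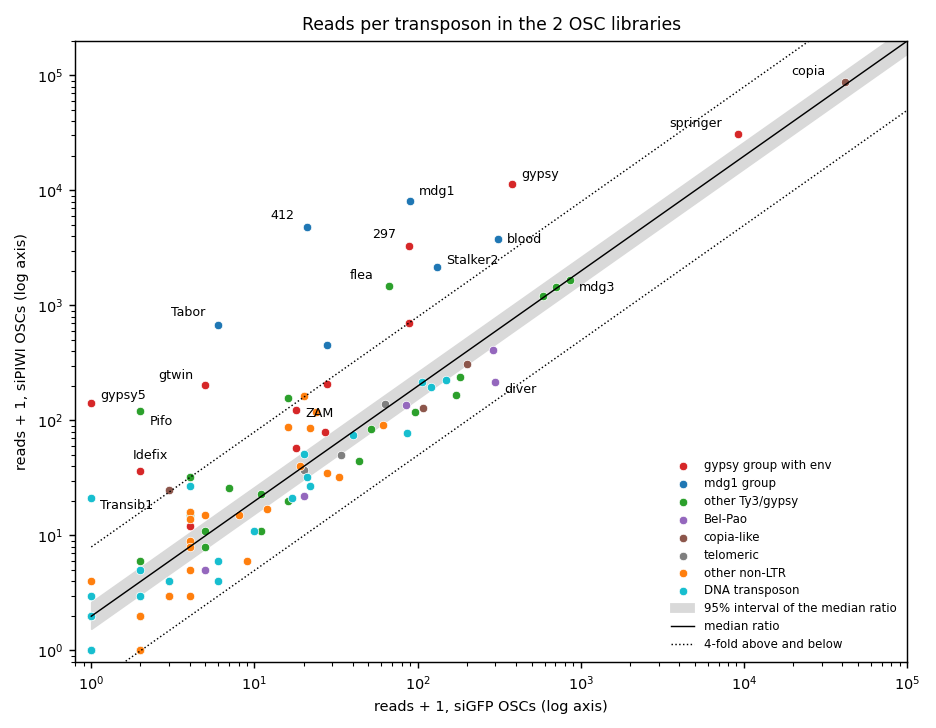
Reads per transposon, with 1 read added, in siGFP OSCs (x axis) and siPIWI OSCs (y axis), both on log axes; each point is 1 transposon, coloured by list, the solid line is the median ratio of 1.99, the grey band its interval and the dotted lines lie 4-fold from it. The mdg1 group lies above the upper dotted line, copia lies on the solid line, and no element with at least 10 reads lies below the lower dotted line.

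Calls near the 4-fold line rest on little. Just above it lay GATE (3 and 31 reads, log2 ratio 2.05), F-element (19 and 163, 2.06) and Dm88 (2 and 24, 2.13). Just below it lay Quasimodo (88 and 697, 1.98), '17.6' (27 and 206, 1.90), P-element (3 and 26, 1.82) and ZAM (17 and 122, 1.79). Names that consist of digits are quoted to set them apart from values.

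The mdg1 group holds Ty3/gypsy elements built like retroviruses but without env. Its 6 members together had 580 reads with siGFP and 19999 with siPIWI, a fold of 17.4 (15.99 to 18.9). The element '412', known for transcription in mesodermal cells of the embryonic gonad, had 20 and 4835 reads, 122-fold higher (78.8 to 199.6). It went from the 39th to the 5th place among transposons ordered by reads. The element mdg1, after which the group is named, had 89 and 8137 reads (46.1-fold, 37.4 to 57.4) and went from the 19th to the 4th place. Tabor was barely read in the control, with 5 reads against 668 (67.3-fold, 28.7 to 208). The intervals of these 3 lie above those of the other 3 members, although mdg1 had more control reads than Stalker. Blood was the most read member in the control, with 308 reads against 3759 (6.15-fold, 5.47 to 6.93). Stalker2 had 131 and 2148 reads (8.26-fold, 6.92 to 9.93) and Stalker had 27 and 452 (8.43-fold, 5.72 to 12.9). Stalker and Stalker2 have related sequences, and how reads that match both were placed is not given in the sources used here.

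The gypsy group with env holds endogenous retroviruses, some of which follicle cells are known to silence through flamenco. Its members differed widely from each other. Springer, the second transposon by reads in both libraries, had 9220 and 31023 reads, a fold of 1.70 (1.66 to 1.74). The remaining members together had 647 and 16245 reads, or 12.6-fold (11.7 to 13.7). Gypsy, the retrovirus-like element that names the class, made up most of these, with 377 and 11386 reads (15.2-fold, 13.7 to 16.9). It moved from the 6th to the 3rd place. The element '297' had 87 and 3306 reads (19.1-fold, 15.5 to 23.97). Its relative '17.6' had 27 and 206 (3.84-fold, 2.57 to 5.97), so the interval of '297' lies wholly above that of '17.6'.

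Some members of the env group were close to undetected in the control. Gypsy5 had 0 reads with siGFP and 141 with siPIWI, at least 23.7-fold higher when the control library is set to a floor of 3 reads, and its exact lower limit, which counts the error of both libraries, was 19.0. Gtwin, a near relative of gypsy, had 4 and 204 reads (25.7-fold, 9.88 to 95.2). Idefix had 1 and 35 reads, a ratio of 17.63 with an interval of 2.96 to 716. Among members not called higher, Quasimodo was 3.99-fold higher (3.19 to 5.04) and ZAM 3.62-fold (2.17 to 6.41). For opus (17 and 57 reads), gypsy6 (26 and 79) and rover (3 and 11), the intervals were 0.969 to 3.10, 0.972 to 2.49 and 0.488 to 10.3, so no difference was detectable at this depth. Over the 12 members the median log2 ratio was 1.94 and over the mdg1 group 4.27, against 0.27 over all 73 transposons.

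**Figure D2:**
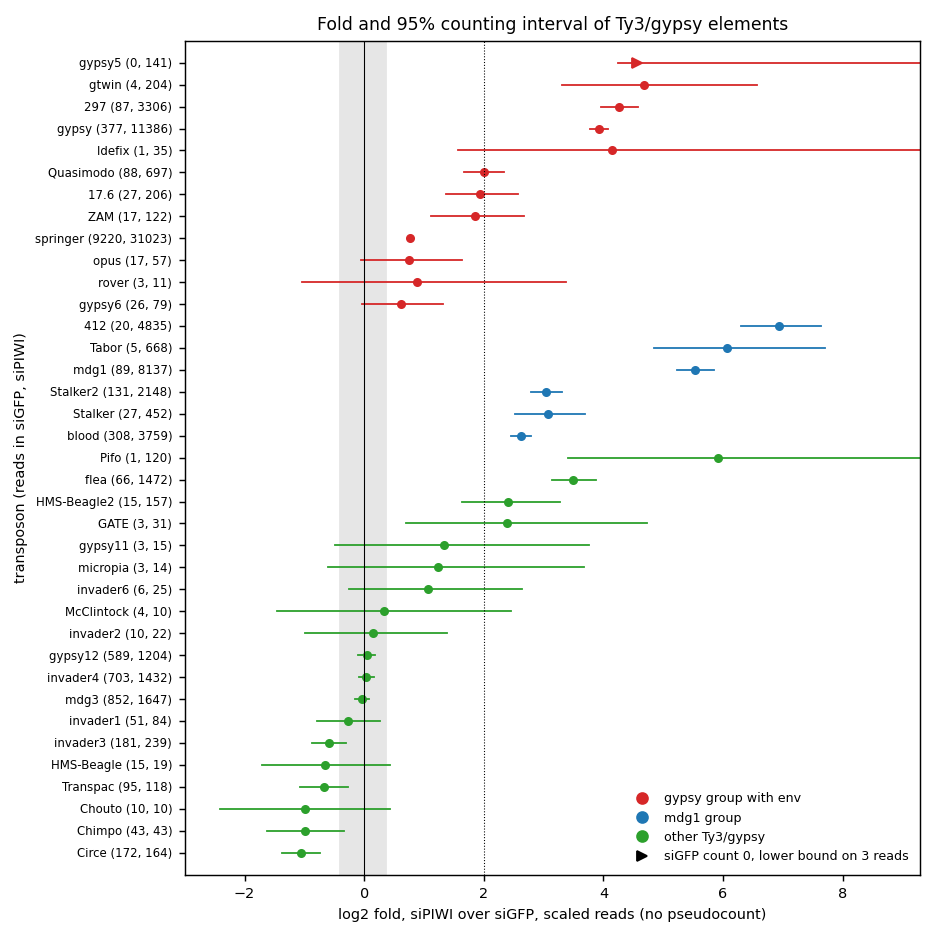
Log2 fold of siPIWI over siGFP reads after scaling, without an added read (x axis), for the Ty3/gypsy elements with at least 10 reads in either library (y axis, reads in siGFP and siPIWI in brackets); points are ratios, bars 95% counting intervals, cut at the right edge where they run on, the dotted line is 4-fold and the grey band the uncertainty of the scaling. The element '412' has the highest ratio, 122-fold, while mdg3, invader4 and gypsy12 sit at 0.

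Among the other Ty3/gypsy elements 4 were called higher. Flea had 66 and 1472 reads (11.2-fold, 8.78 to 14.6). HMS-Beagle2 had 15 and 157 (5.27-fold, 3.10 to 9.65), whereas HMS-Beagle had 15 and 19 (0.638-fold, 0.307 to 1.35). The 2 namesakes thus started from equal reads and have intervals that do not overlap. Pifo had 1 and 120 reads, a ratio of 60.5 with an interval of 10.6 to 2407. GATE had 3 and 31 reads, a ratio of 5.21 (1.62 to 26.6). The most read elements of this list in the control lay on the scaling ratio: mdg3 had 852 and 1647 reads (0.974-fold, 0.896 to 1.06), invader4 had 703 and 1432 (1.03-fold, 0.937 to 1.13) and gypsy12 had 589 and 1204 (1.03-fold, 0.932 to 1.14). They held the 3rd, 4th and 5th places with siGFP and the 9th, 11th and 12th with siPIWI. Invader3 (181 and 239 reads) and Transpac (95 and 118) had folds of 0.665 (0.546 to 0.811) and 0.626 (0.474 to 0.829).

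Copia encodes its own capsid and polymerase in a single polyprotein and belongs to another LTR class. It had 41777 reads with siGFP and 86920 with siPIWI, a fold of 1.05 (1.04 to 1.06), well within the uncertainty of the scaling. The copia-like elements '1731' (201 and 311 reads) and Copia1 (107 and 126) lay at 0.779 (0.651 to 0.935) and 0.593 (0.455 to 0.775). Dm88 had 2 and 24 reads, a ratio of 6.05 (1.501 to 52.8).

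None of the Bel-Pao elements, a separate LTR class, was called higher. Diver held 0.521% of transposon reads with siGFP and 0.130% with siPIWI, where it had 214 reads; its fold of 0.363 (0.303 to 0.434) was the lowest ratio of the 73, and fell from the 8th to the 20th place. Diver is 1 of 4 transposons past the minimum with fewer reads as deposited in siPIWI, the library with more transposon reads. The others are Circe (172 and 164), S2 (85 and 77) and G5A (32 and 31). The element 3S18 had 289 and 411 reads (0.716-fold, 0.615 to 0.836), and roo had 84 and 135 (0.810-fold, 0.612 to 1.08). Diver's interval lies below the range of the common factor, and so do those of Circe (0.385 to 0.598) and S2 (0.331 to 0.629). That of 3S18 overlaps this range. At the lower end of the scaling interval the fold of diver would be 1.28 times higher, still under 1.

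Non-LTR elements copy themselves into the genome by reverse transcription at the target site. Of 13 past the minimum, 6 had a fold above 2, 1 had a fold below 0.5, and 6 lay between. F-element was called higher (4.32-fold, 2.68 to 7.36). Doc had 15 and 86 reads (2.89-fold, 1.66 to 5.38), the I-element, known from hybrid dysgenesis, had 23 and 117 (2.56-fold, 1.63 to 4.20), and Juan had 21 and 85 (2.04-fold, 1.25 to 3.46). These were the 4 of 13 with intervals above 1. Doc3-element had 60 and 90 reads (0.756-fold, 0.539 to 1.07) and jockey had 27 and 34 (0.634-fold, 0.372 to 1.09). The telomeric elements, which maintain fly chromosome ends in place of telomerase, had 114 and 222 reads in sum, a fold of 0.981 (0.779 to 1.24). TART-A had 62 and 137 of these.

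DNA transposons move without an RNA copy of the element itself. Their most read members stayed near the ratio: DNAREP1 had 148 and 223 reads (0.759-fold, 0.614 to 0.941), pogo had 120 and 195 (0.819-fold, 0.649 to 1.04) and '1360' had 105 and 214 (1.03-fold, 0.809 to 1.31). Transib1 was the single one called higher, with 0 and 20 reads. On the floor of 3 control reads it was at least 3.36-fold higher, and its exact lower limit was 2.49, both under 4-fold. P-element had 3 and 26 reads (4.37-fold, 1.34 to 22.5).

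The reads gained with siPIWI were concentrated in few elements. Reads above the scaled control summed, at the median ratio, to a net 51006 over all transposons. Springer, with its modest fold but high level, accounted for 12721 of them (24.9%). Gypsy held 10638 (20.9%), mdg1 7960 (15.6%) and '412' 4795 (9.40%). Together with copia, blood and '297' they made up 90.9%. The part of copia, 3991 reads, has no fixed sign: over the interval of the scaling it runs from 22280 to -23019.5 reads. The order of the elements shifts with it: at the low end copia comes first and springer second, with 16757 reads, and at the high end gypsy comes first with 10394, before mdg1 and then springer with 6759.8. At the median ratio the 18 elements called higher held 68.2% of the net gain. By list, the gypsy group with env held 54.3% and the mdg1 group 37.0%.

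Composition needs no scaling between libraries. The 18 elements held 2.02% of transposon reads with siGFP (1.91 to 2.14) and 22.6% with siPIWI (22.4 to 22.8); since they were called on these reads, this is a description. Without copia and springer the shares were 19.1% and 80.0%. The mdg1 group held 3.80% of the reads other than copia with siGFP and 25.9% with siPIWI. The gypsy group with env held a similar part of them in both, 64.6% and 61.1%, but springer, 60.4% of those reads with siGFP, held 40.1% with siPIWI. The number of equally abundant elements that would give the same diversity (the exponential of Shannon's entropy) was 3.04 with siGFP and 5.84 with siPIWI. Without copia and springer it went the other way, from 27.6 to 14.6. There, 28 elements made up 90% of reads with siGFP, and 15 did with siPIWI.

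**Figure D3:**
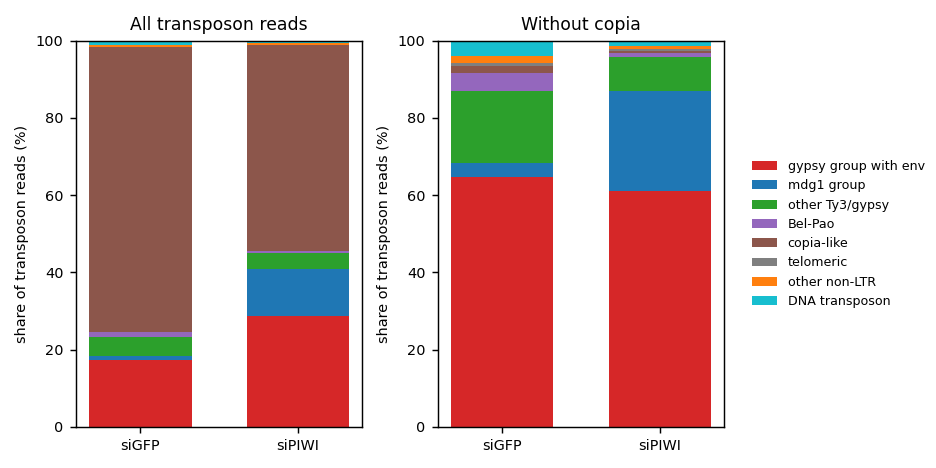
Share of transposon reads (y axis, percent) held by each list in the siGFP and siPIWI libraries, for all transposons (left) and without copia (right); each bar is 1 library and each colour a list. The mdg1 group grows from 1.02% to 12.2% on the left and from 3.80% to 25.9% on the right.

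Each deposited count was read as the end of 1 read, at the 3′ side of the RNA, so its position was taken as where the read ended. The element sequences were not available here, so poly(A) signals and A-rich stretches around these positions were not checked. Whether a position is the true end of an RNA was not tested. Among the 44 transposons with at least 50 siPIWI reads, the most used position lay in the last 10% of the element for 37, at a median of 79 nt from the end over all 44. In 27 of the 40 that also had at least 10 siGFP reads, this position was the same nucleotide in both libraries, and in 33 it lay within 25 nt. Sites of ending were therefore mostly shared by the libraries, while their weights could differ. Ends were tight: a median of 61.3% of an element's siPIWI reads fell within 25 nt of its main position. Flea was among the tightest, with 1357 of 1472 reads around position 5028 of 5034. Copia had 78204 of 86920 reads around position 5076 of 5143.

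Most of the mdg1 group had a second region of ends, between 10% and 30% of the element's length. Of 35 transposons with at least 100 siPIWI reads, 8 had more than 20% of siPIWI ends there, and 5 of these 8 were mdg1-group elements. The share was 50.04% for blood (48.4 to 51.7), 43.1% for Stalker2 (40.96 to 45.2), 41.7% for '412' (40.3 to 43.1), 38.5% for mdg1 (37.5 to 39.6) and 38.2% for Tabor (34.5 to 41.98). Stalker was the exception, with 7.08% (4.89 to 9.85). The others over 20% were TART-A (53.3%), gypsy12 (28.2%) and '1360' (25.7%), while 20 of the 35 were under 5%. The limit of 30% leaves out sites further along in other LTR elements. In mdg3, 316 and 374 of 1647 siPIWI reads lay around positions 1701 and 1744, at 30.8% and 31.6% of its length. Invader3 had 164 of 239 at 34.2%, and invader4 had 897 of 1432 at 44.2%. Ends far from the 3′ end were thus not particular to the mdg1 group.

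These early ends fell on a few sites per element. Around position 1281 of mdg1, of 7480 nt, lay 35 reads with siGFP and 1393 with siPIWI. In '412' (7567 nt) there were 6 and 588 around position 1452 and 3 and 885 around 1771. In blood (7410 nt) 88 and 1167 reads lay around position 1672, and in Tabor (7345 nt) 3 and 217 lay around 1209. Stalker2 (7672 nt) had 32 and 373 around 1338, with a neighbouring site at 1374 of 31 and 284 reads. The sites lie at 16.5% to 23.4% of the elements' lengths.

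Early and late ends did not gain alike in mdg1, '412' and Stalker2. In mdg1 80 of 89 siGFP reads lay in the early region (89.9%, 81.7 to 95.3), and these were 19.7-fold higher (15.8 to 24.97), while reads in the last 30% of the element went from 6 to 4539, 381-fold (175 to 1039). For '412' the early reads were 84.7-fold higher (48.4 to 164) and those in the last 30%, 2 and 2594, were 653-fold higher (181 to 5398). Stalker2 showed the same order, 5.68-fold early (4.53 to 7.21) and 14.4-fold late (10.5 to 20.2). In blood the folds had overlapping intervals, 6.54-fold early (5.52 to 7.79) and 6.30-fold late (5.32 to 7.51). Intervals also overlapped in Tabor, 42.8-fold early (14.5 to 209) and 92.7-fold late (25.5 to 768). The same held for Stalker, 4.03-fold early (1.43 to 15.7) and 14.5-fold late (8.37 to 27.5). Early reads of mdg1, '412', blood and Stalker2 were thus present in the control and higher with siPIWI, and for mdg1, '412' and Stalker2 the interval of the late reads lay above that of the early ones. A shift to the last 30% was not particular to this group. Of the 40 transposons with at least 50 siPIWI and 10 siGFP reads, 13 had a higher share there with siPIWI, with intervals apart, and 1 a lower share. In '297' reads in the last 30% were 23.1-fold higher (18.1 to 29.8) and the rest 5.99-fold (3.80 to 9.99). In flea these were 13.1-fold (9.98 to 17.4) and 2.06-fold (1.05 to 4.42).

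**Figure D4:**
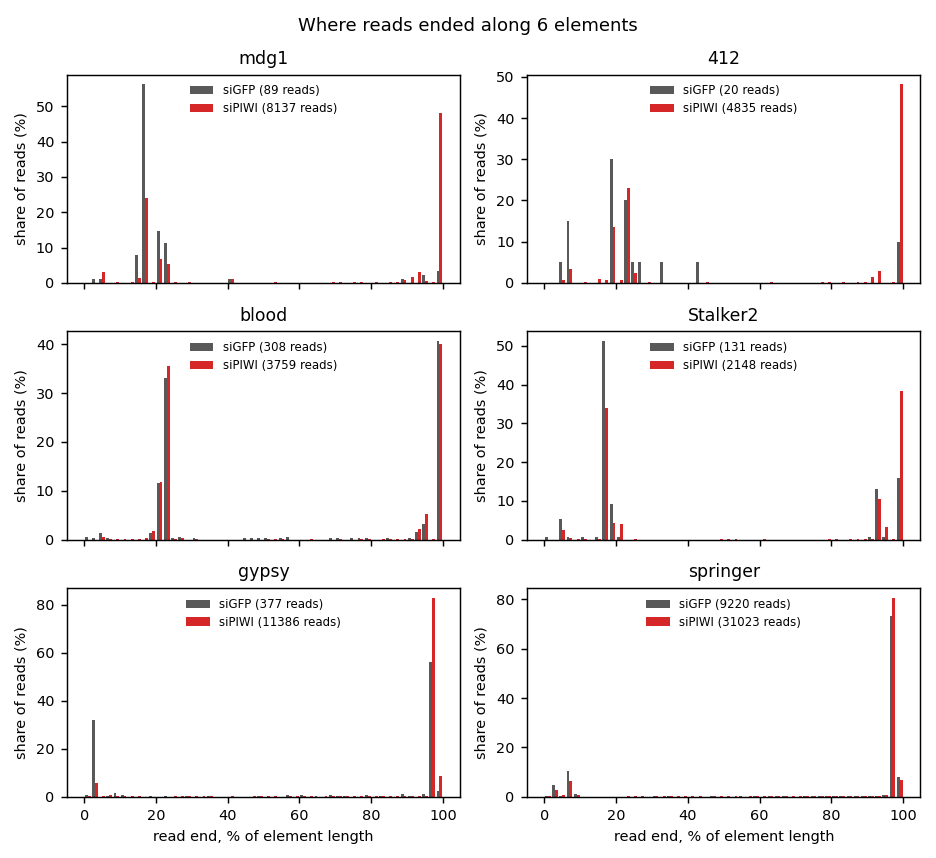
Share of an element's reads (y axis, percent) ending in each 2% of its length (x axis, from the 5′ to the 3′ end) in siGFP (grey) and siPIWI (red) OSCs for 6 elements; each bar is 1 library, and y scales differ between panels. In mdg1 the share in the last 30% goes from 6.74% to 55.8%, while blood has both regions in like shares in the 2 libraries.

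In gypsy, ends near the start of the element repeated those near its end. The siPIWI library had clusters around positions 273 (553 reads) and 472 (50 reads) and around 7260 (8384 reads) and 7459 (892 reads) of 7469, and both pairs lie 6987 nt apart. Such a spacing corresponds to a terminal repeat of 482 nt, in which a read can match either copy. Of gypsy reads, 32.6% lay in the first of these repeats with siGFP and 5.95% with siPIWI. Reads outside the last 30% were 2.86-fold higher (2.39 to 3.45) and those within it 22.7-fold (19.9 to 25.9). In springer, the reads outside the last 30% lay at 1.06-fold (0.994 to 1.12) and those within it at 1.82-fold (1.78 to 1.87). How the authors placed reads between the repeats is not given in the sources used here, and its part in these shifts was not tested.

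The ovary pair, in which *vreteno* rather than *piwi* was knocked down and all ovarian cells were read, gave another order of elements. Of 39 elements with reads in all 4 libraries and at least 10 in 1 library of each pair, the log2 fold differed beyond an interval widened for 39 comparisons in 8. The OSC fold was the larger for '412' (122 against 3.94), '297' (19.1 against 1.96), '17.6' (3.84 against 0.954) and Doc (2.89 against 1.07). It was the smaller for ZAM (3.62 against 211.5), springer (1.70 against 28.3), gypsy (15.2 against 81.3) and copia (1.05 against 2.01). The controls started from different levels: springer had 9220 reads of 57045 in siGFP OSCs and 15 of 2382 in control ovaries, and '412' had 20 and 256. The knocked-down gene, the tissue and the libraries differ between the pairs and cannot be told apart.

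**Figure D5:**
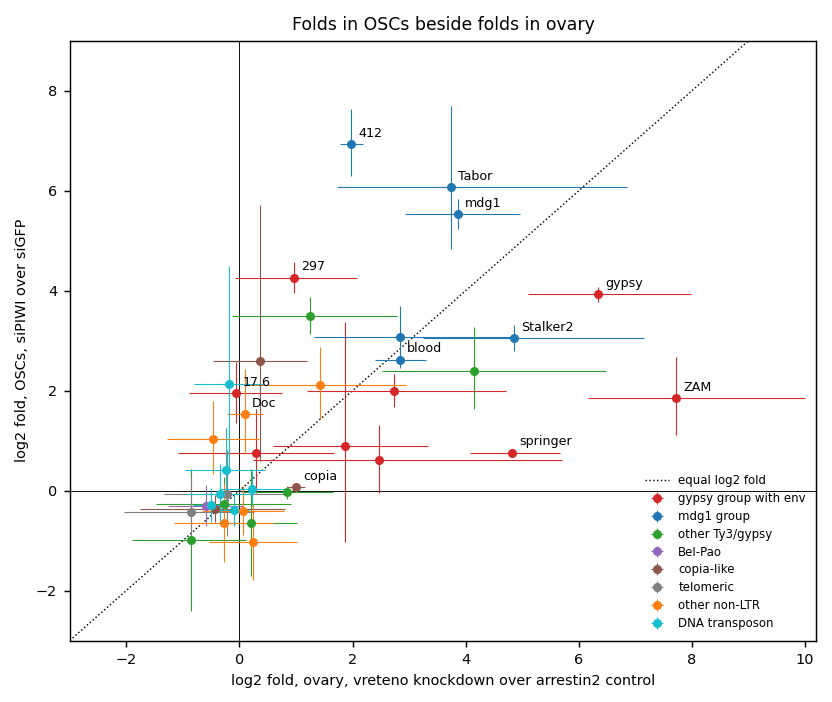
Log2 fold of scaled reads in OSCs, siPIWI over siGFP (y axis), against that in ovaries, vreteno knockdown over arrestin2 control (x axis), for 39 transposons; points are ratios coloured by list, bars are 95% counting intervals not widened, and the dotted line marks equal folds. '412' and '297' lie above the line, and ZAM, springer and gypsy below it.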

How the data were processed

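The deposited files list, position by position along 150 reference sequences (672432 positions), whole-number counts with no sign of normalization in the values. The submitters' processing notes list minimap2. Its version and role, the strand and the handling of multiple matches are not given in the sources used here. Only 2434 positions (siGFP) and 5800 (siPIWI) on transposons held a count, so counts were taken as read ends, from the values alone, and summed per element. The files hold only reads on these sequences, so full depth is unknown. Libraries were joined by element and position, since their row orders differ. Ratio intervals are exact conditional intervals and share intervals Clopper-Pearson, both at 95%, in Python 3.11.15 with SciPy 1.17.1. The ratio intervals were checked on counts simulated with counting error only and a known depth ratio. That check does not cover the error of the scaling or variation between libraries. Log2 ratios have a pseudocount of 1 read, and the floor is 3 reads. Values are given for transposons called and for those with at least 100 reads in either OSC library. They are also given for those at least 2-fold lower with at least 10 reads. The same goes for those with 0 reads in 1 OSC library and at least 10 in the other, and for a few others chosen after their values were seen. The elements and the 8 lists were chosen with earlier results of these data known. Which Ty3/gypsy elements carry env, and the lists of GATE, Chouto and Copia1, were set from general knowledge, without an annotation of the elements. Counts and medians per list depend on that placing. The alternatives were other scalings, pseudocounts of 0.5 and 10, other minimums, a 2-fold threshold, and other read regions; scaling by the 6 lists outside the mdg1 and env groups and a floor of 3 for 0 control reads were added after seeing the data.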

Additional observations from a re-analysis of the deposited data

Results flagged for a closer look

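The change of 8 transposons differed between the OSC pair and the ovary pair by the interval of the log2 difference (OSC minus ovary), widened for 39 elements. The difference was -5.87 for ZAM (-10.2 to -3.27), -4.06 for springer (-5.52 to -2.93), -2.42 for gypsy (-5.34 to -0.60) and -0.94 for copia (-1.20 to -0.68). It was 1.43 for Doc (0.10 to 3.04), 2.01 for '17.6' (0.40 to 3.73), 3.29 for '297' (1.40 to 5.02) and 4.95 for '412' (3.93 to 6.21). Each rests on 1 library per group, and the uncertainty of either scaling comes on top of these intervals. A common OSC factor of 0.754 takes the lower ends for Doc and '17.6' to below 0.

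Among the sequences left out of the transposon totals, the rDNA spacer (the entry NTS_DM) had 311 reads with siGFP and 735 with siPIWI, a fold of 1.19 (1.04 to 1.36), which lies within the uncertainty of the scaling.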

How the results depend on the processing

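No paired analysis was possible because each group has 1 library, and for the same reason no replicate could be left out. Scaling to transposon reads without copia, a ratio of 5.06, gave 10 transposons at least 4-fold higher and 6 lower; asking 10 reads of both libraries gave 10 higher. Lowering the threshold to 2-fold gave 3 lower and 27 higher. In the other 12 settings between 12 and 26 were higher and 0 lower. The 5 transposons '297', '412', flea, gypsy and mdg1 were called in all 15 settings; GATE, F-element and Dm88 were called in 7, 9 and 9. Blood, Stalker and Stalker2 lost their call with transposon reads without copia. The median of all transposons moved from 0.27 to 1.14 without scaling and to -0.88 with transposon reads without copia, so list medians were compared as differences from it. For the mdg1 group, 4.001, this was 3.61 with a pseudocount of 10, 3.04 with 10 reads in both libraries and 3.61 with a minimum of 50 reads. For the other Ty3/gypsy elements, -0.23, it was -0.43 with transposon reads without copia, -0.66 with 50 reads, -0.034 with 1 read, -0.52 in the last 30% of elements and -0.38 at the highest position. For copia-like elements, -0.42, it was -0.61, -1.02, -0.20 and -0.86 in the first 4 of these, and -0.27 with a pseudocount of 10. For the non-LTR elements, 0.42, it was -0.24 at the highest position. Without copia, elements called higher held 7.56% and 47.9% of reads, and the effective number of elements was 7.29 and 9.76. In siGFP 89.9% of counts lay in the last 10% of elements and 91.1% in the last 30%; in siPIWI these were 86.6% and 88.0%. Elements under about 20 control reads are limited by depth.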

Other observations

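Elements with few reads in OSCs were not all rare in the ovary. Burdock, an LTR element, had 2 reads in either OSC library and 71 and 54 in the control and vreteno knockdown ovaries. Max-element had 4 in either OSC library against 24 and 25, and G4, a non-LTR element, had 3 and 4 against 16 and 7. P-element had 3 and 26 in OSCs against 54 and 43. In OSCs 29 transposons had reads but fewer than 10 in both libraries, at most 8, and 22 had none; of the latter, 9 had a read in ovary and 13 in no library. Tirant, an env-bearing relative of gypsy, had 0 reads in both OSC libraries and 1 and 0 in ovary. A read was present for 94 of the 124 transposons in siGFP, with 57045 transposon reads, and for 100 in siPIWI, with 164243. Of the 10 transposons with reads in 1 OSC library alone, 8 had them in siPIWI and 2 in siGFP. Among these, only gypsy5 (141 reads) and Transib1 (20) had more than 3 reads, so the split is not read as a gain.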
